A study of Mus musculus with 64 samples.

Results

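Genes of the endoplasmic reticulum (ER) that fold secreted proteins, respond to misfolded protein or send it for degradation were followed in 4 tissues of F2 mice. The list held 36 genes chosen by name, of which 17 act in folding, 12 in the arms of the stress response and 7 in degradation. Each gene was measured by the probe set annotated to it alone, and by the one with the highest mean over all arrays where a gene had several. Such a probe set was listed for 35 of the 36 genes, out of 18194 genes with a probe set of their own. None was listed for Eif2s1, the alpha subunit of the translation initiation factor eIF2, and it has no value below. The comparisons asked whether the pancreas differed from the other tissues, whether folding genes differed from the stress response arms in this, and whether mice with high and low plasma triglyceride differed.

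The animals were 16 F2 male mice of a cross between TALLYHO and C57BL6 mice, aged 24 weeks and kept on chow. Of these, 8 came from the upper tail (high triglyceride) and 8 from the lower tail (low triglyceride) of plasma triglyceride in the cross, and overtly diabetic mice had been set aside. Each mouse gave 1 array of pancreas, liver, muscle and adipose tissue, which makes 64 arrays. Muscle was soleus with gastrocnemius, and adipose tissue was a mix of several fat pads. F2 mice differ from one another in the alleles that they inherited, so a triglyceride group is a set of unlike genotypes and not a strain. No array of a parental strain was used here.

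Values are log2 signal, and the lowest, median and highest values of arrays given below are as deposited. Arrays of a tissue share their lowest value, which was 2.35 in pancreas, 2.30 in liver, 2.29 in muscle and 2.24 in adipose tissue, so the tissues appear to have been scaled apart from each other. The 75th percentile of an array lay between 3.62 and 3.72 in pancreas, against 5.26 to 5.42 in liver, 5.87 to 5.98 in muscle and 6.54 to 6.97 in adipose tissue. Tissues were therefore compared on a common scale, with the 64 arrays brought to 1 distribution by quantile normalization, and the difference in values as deposited stands beside it throughout. The choice matters for many of these genes. The acinar marker Cpa1 ran from 16.34 to 16.48 in pancreas, against at most 2.31 in liver, 3.11 in muscle and 5.62 in adipose tissue, and Ins2 of the islets ran from 13.36 to 15.14 in pancreas. Adipose arrays also held muscle RNA, with Acta1 between 8.01 and 14.39.

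The array labelled liver, low triglyceride replicate 7, went against its label. Its Alb value was 6.50, where the liver median was 15.73, and its Adipoq value was 14.23, where the liver median was 2.32. Its correlation with the mean of the other liver arrays was 0.833. Of the 35 genes, 23 lay below the range of the other 15 liver arrays on it, 2 lay above and 10 lay within. Ddit3 and Asns were the genes above, at 7.85 and 8.66. Where leaving out this array changed the call of a printed value, or moved a called value by over 1.5 times, the value without it is given as well. Where a gene lay at or near the lowest value in a tissue, the size of a difference against that tissue is a lower bound. This does not hold where both sides of the difference lay there. Genes are ordered by the difference as measured.

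Proteins that enter the secretory pathway are folded in the ER by chaperones of the Hsp70 and Hsp90 families, by lectins that bind their sugar chains and by protein disulfide isomerases that form and rearrange disulfide bonds. When unfolded protein builds up, the sensors IRE1 (gene Ern1), ATF6 and PERK (gene Eif2ak3) are activated. They raise chaperone genes through XBP1 and ATF6, and slow translation while ATF4 is made. Proteins that fail to fold are carried back to the cytosol through a membrane complex around SEL1L, HRD1 (gene Syvn1) and derlins, and are then degraded. Acinar cells of the pancreas are known for a dense rough ER and a large output of digestive enzymes, and XBP1 is needed for their secretory apparatus in mice.

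Promoters of these genes are shown because some of them hold short elements of the stress response, and the share of all promoters with each element is given beside them. Windows of 250 bases before and 50 bases after the start were taken from RefSeq (GRCm38.p6), with 32 windows for 31 of the 36 genes. Both strands were searched for the ER stress response element (ERSE, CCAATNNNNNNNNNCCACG), its second form (ERSE-II, ATTGG and CCACG with 1 base between), the unfolded protein response element (UPRE, TGACGTGG) and the core of the amino acid response element (AARE, TGATGNAA). ERSE and ERSE-II end on the same CCACG, and no match of one overlapped a match of another in the 32 windows. An ERSE stood in the windows of 9 genes (Calr, Canx, Creld2, Derl3, Dnajc3, Hsp90b1, Hspa5, Pdia6 and Syvn1), and in 39 of all 32851 windows (0.119%). An ERSE-II stood in the windows of Dnajb11 and Herpud1, and in 12 of all windows (0.0365%). The AARE core was found for Asns, Chac1, Herpud1 and Trib3, and in 1304 of all windows (3.97%). The UPRE was found in none of the 32 windows, and in 222 of all windows (0.676%). A match is a run of letters and was not tested as a binding site.

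Capitals mark the fixed bases of the matches in the windows below, which run 5′ to 3′ along the strand of the gene. Hspa5, Hsp90b1, Creld2 and Derl3 show the ERSE in folding and degradation genes, Herpud1 shows an ERSE-II with an AARE core, and Asns shows the AARE core alone.
Hspa5, chr2:34771840-34772139, plus strand: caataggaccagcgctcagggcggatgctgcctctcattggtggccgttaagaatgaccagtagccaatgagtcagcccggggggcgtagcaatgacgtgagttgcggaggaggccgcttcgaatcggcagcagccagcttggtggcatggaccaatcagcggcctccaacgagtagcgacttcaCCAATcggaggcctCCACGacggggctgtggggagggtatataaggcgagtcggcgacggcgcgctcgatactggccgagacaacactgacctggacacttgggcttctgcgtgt
Hsp90b1, chr10:86705395-86705694, minus strand: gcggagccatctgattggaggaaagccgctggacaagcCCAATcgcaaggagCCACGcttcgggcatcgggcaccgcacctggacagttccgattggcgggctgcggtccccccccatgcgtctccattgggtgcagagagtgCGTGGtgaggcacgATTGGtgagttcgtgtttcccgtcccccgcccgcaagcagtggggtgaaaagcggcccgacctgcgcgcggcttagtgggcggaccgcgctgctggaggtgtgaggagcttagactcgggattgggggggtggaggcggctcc
Creld2, chr15:88819396-88819695, plus strand: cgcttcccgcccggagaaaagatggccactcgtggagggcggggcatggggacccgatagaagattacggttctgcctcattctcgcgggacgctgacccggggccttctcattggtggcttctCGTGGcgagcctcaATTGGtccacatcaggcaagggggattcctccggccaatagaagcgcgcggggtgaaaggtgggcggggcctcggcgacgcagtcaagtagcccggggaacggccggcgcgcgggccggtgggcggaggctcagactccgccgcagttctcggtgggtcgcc
Derl3, chr10:75893148-75893447, plus strand: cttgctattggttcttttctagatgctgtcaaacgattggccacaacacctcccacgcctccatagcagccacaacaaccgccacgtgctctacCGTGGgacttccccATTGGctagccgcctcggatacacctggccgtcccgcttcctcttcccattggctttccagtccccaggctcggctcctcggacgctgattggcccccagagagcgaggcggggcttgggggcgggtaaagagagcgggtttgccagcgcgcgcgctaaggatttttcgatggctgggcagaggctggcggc
Herpud1, chr8:94386179-94386478, plus strand: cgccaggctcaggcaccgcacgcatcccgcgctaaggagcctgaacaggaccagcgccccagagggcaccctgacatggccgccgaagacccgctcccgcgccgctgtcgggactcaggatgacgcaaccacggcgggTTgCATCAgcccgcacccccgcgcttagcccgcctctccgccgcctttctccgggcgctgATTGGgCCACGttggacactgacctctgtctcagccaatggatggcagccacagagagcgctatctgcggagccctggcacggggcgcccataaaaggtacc
Asns, chr6:7693160-7693459, minus strand: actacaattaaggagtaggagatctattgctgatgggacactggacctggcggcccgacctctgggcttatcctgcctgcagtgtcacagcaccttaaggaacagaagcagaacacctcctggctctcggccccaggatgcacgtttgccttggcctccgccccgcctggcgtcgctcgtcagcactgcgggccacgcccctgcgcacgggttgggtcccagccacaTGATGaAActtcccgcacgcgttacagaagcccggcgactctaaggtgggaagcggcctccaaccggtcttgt
In Hspa5 the ERSE ended 47 bases before the start. Hsp90b1 held an ERSE in each orientation, and in Creld2 and Derl3 the element was read on the other strand. The AARE core of Asns ended 16 bases before the start.

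Most of the 35 genes were higher in pancreas than the other tissues on the common scale, while the deposited values split them. On the common scale 31 genes were higher in pancreas than the mean of liver, muscle and adipose tissue and 2 were lower (adjusted p under 0.05, limma), where 32.7% of all 45037 probe sets were higher and 36.5% were lower. In the deposited values 21 genes were higher and 13 were lower, where 38.6% of all probe sets were higher and 52.4% lower. The median difference of the 35 genes was 2.53 log2 units on the common scale and 0.53 as deposited, beside medians over all probe sets of -0.000245 and -0.20. Of the 45037 probe sets, 10280 had a deposited pancreas mean of 4 or more, while 32 of the 35 genes did. Shares and medians over all probe sets thus rest mostly on probe sets near the lowest value in pancreas, here and in the counts below. They are not a like background for the 35 genes. In bulk tissue, a higher value can come from more cells of a type or from more RNA per cell, and these cannot be told apart.

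Counts against each single tissue were smaller. On the common scale 25 genes were higher in pancreas than in each of the other tissues and 0 were lower than in each, where the shares of all probe sets were 21.8% and 13.5%. As deposited, 14 genes were higher than in each and 5 were lower (Pdia5, Dnajb9, Dnajb11, Ppp1r15a and Derl1), where the shares were 30.5% and 26.7%. Of the 13736 probe sets behind the 30.5%, 12360 had a pancreas mean under 4, close to the lowest value, which is itself highest in pancreas. Of the 9828 behind the 21.8%, 5430 had a deposited pancreas mean under 4. Among the 10280 probe sets with a pancreas mean of 4 or more, 4398 were higher than in each tissue on the common scale and 1376 as deposited. A rule of at least 2-fold over each tissue is less open to small offsets of the lowest value. It took in 21 genes on the common scale, where 10.9% of all probe sets met it, and 8 genes as deposited, where 2.64% met it. The genes that met it on both scales were Pdia2, P4hb, Sdf2l1, Creld2, Eif2ak3, Sel1l, Derl3 and Asns. At least 2-fold below each tissue there were 0 genes on the common scale (6.3% of all probe sets) and 1, Derl1, as deposited (17.6%). Without the liver array named above, P4hb left the 8, since it stood 0.87 over liver as deposited (1.12 with that array), and Syvn1 left the 21, at 0.99 over liver on the common scale.

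**Figure D1:**
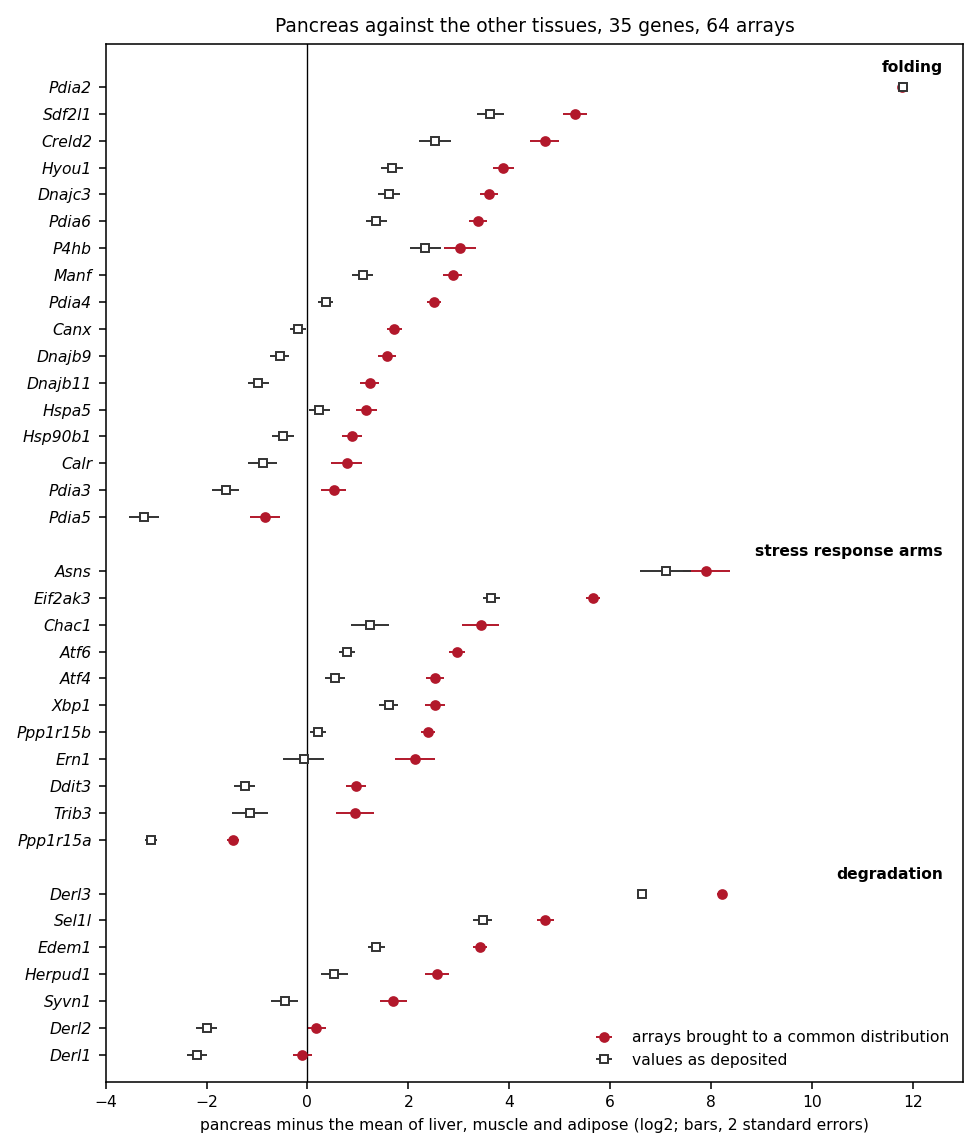
Difference between pancreas and the mean of liver, muscle and adipose tissue (x axis, log2) for 35 genes in 3 roles, on the common scale (filled circles) and as deposited (open squares), with bars of 2 standard errors over 64 arrays. Pdia2 stands at 11.79 and 11.81 and Ppp1r15a at -1.47 and -3.09, while genes such as Calr lie to the right of 0 on the common scale and to the left of it as deposited.

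Among the folding genes, Pdia2 had the largest difference of all. Pdia2 encodes a protein disulfide isomerase known from the pancreas. Its lowest, median and highest values were 13.69, 14.12 and 14.44 in the 16 pancreas arrays, against highest values of 2.45 in liver, 2.42 in muscle and 2.50 in adipose tissue. The other tissues thus stayed close to the lowest value of the array, and no array of theirs came near the pancreas. The difference was 11.79 ± 0.03 on the common scale (SE, adjusted p = 5.43e-98, limma) and 11.81 ± 0.03 as deposited, each a lower bound on the size.

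Sdf2l1, a partner of the chaperone BiP, had values of 5.98, 6.76 and 8.31 in pancreas (lowest, median and highest of 16). It had 2.94, 4.18 and 5.94 in liver, 2.74, 3.04 and 3.62 in adipose tissue and a median of 2.29 in muscle, which is the lowest value there. Every pancreas array was above every array of the other tissues. The difference was 5.30 ± 0.12 on the common scale (adjusted p = 5.18e-44) and 3.63 ± 0.14 as deposited. Creld2, an ER protein with isomerase activity that is induced by ER stress, had 8.67, 9.36 and 10.45 in pancreas. It had 5.62, 7.94 and 10.06 in liver, so those tissues overlapped, and 4.79, 5.11 and 5.54 in muscle and 6.81, 7.40 and 7.70 in adipose tissue. Without the liver array named above the lowest liver value was 7.46, and the ranges still overlapped as deposited. On the common scale every pancreas array was above every liver array for Creld2. Its difference was 4.70 ± 0.14 (adjusted p = 4.95e-38) and 2.52 ± 0.16 as deposited. Hyou1, a large relative of the Hsp70 chaperones, had 7.94, 8.11 and 8.47 in pancreas, against 5.91, 7.74 and 8.52 in liver, 4.51, 5.18 and 5.61 in muscle and 6.19, 6.69 and 7.01 in adipose tissue. As deposited, the pancreas overlapped with liver and with no other tissue. On the common scale every pancreas array was above every liver array for Hyou1. The difference was 3.89 ± 0.10 (adjusted p = 1.2e-40) and 1.68 ± 0.11 as deposited, while a second probe set of Hyou1 was lower in pancreas as deposited, by -0.74, and higher on the common scale, by 0.75.

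**Figure D2:**
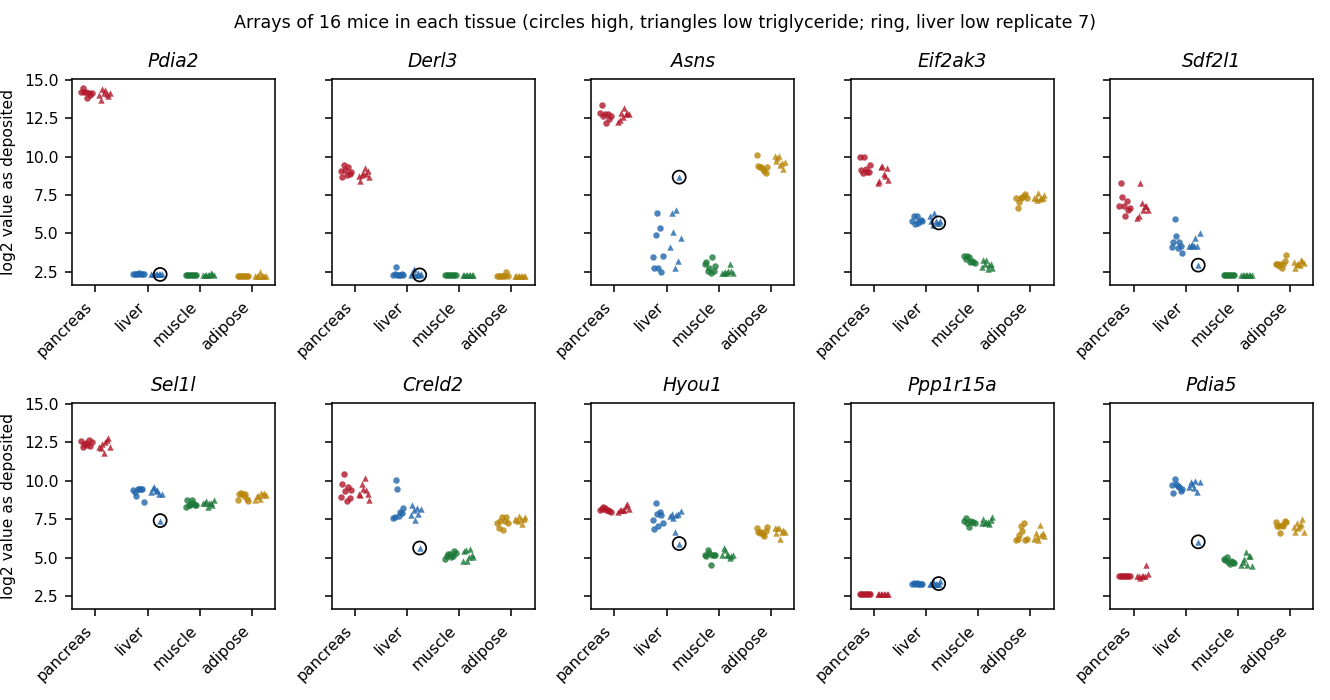
Deposited log2 values (y axis) of the 8 genes with the largest pancreas difference and of both genes that were lower, for the 16 mice of each tissue, with high triglyceride mice as circles, low triglyceride mice as triangles and the array labelled liver low replicate 7 ringed. Pdia2 and Derl3 sit at 8.40 or above in pancreas and below 2.90 in the other tissues, and Asns spreads from 2.51 to 8.66 in liver.

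Of the other folding genes, 6 kept a pancreas excess on both scales. P4hb, the beta subunit of prolyl hydroxylase and itself a disulfide isomerase, differed by 3.02 on the common scale and 2.34 as deposited. Dnajc3, a cochaperone of BiP, differed by 3.61 and 1.61, Pdia6 by 3.38 and 1.37, and Manf, a secreted ER stress protein, by 2.88 and 1.09. Against liver alone Manf differed by only 0.05 as deposited (adjusted p = 0.73, limma). Pdia4 differed by 2.51 and 0.36, yet was lower in pancreas than in liver on both scales, by -0.33 and -2.05. Hspa5, which encodes BiP, the main Hsp70 chaperone of the ER, differed by only 1.17 and 0.24. Its median was 12.52 in pancreas, against 13.27 in liver, 11.04 in muscle and 12.79 in adipose tissue as deposited, where every pancreas array was above every muscle array and overlapped with liver and adipose tissue. On the common scale every pancreas array was also above every adipose array. Pancreas minus muscle was 2.67 on the common scale and 1.56 as deposited, while pancreas minus liver was -0.09 (adjusted p = 0.6) and -0.63. Without the liver array named above it was -0.21 on the common scale (adjusted p = 0.0449), a call of lower in pancreas than in liver, and -0.74 as deposited. As deposited, the other probe sets of Hspa5 were lower in pancreas, by -0.30 and -0.45, and both were higher on the common scale, by 1.28 and 1.78.

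The remaining 7 folding genes had no direction that held on both scales, or were lower. Hsp90b1 (the ER member of the Hsp90 family) differed by 0.88 on the common scale and -0.49 as deposited, Calr (calreticulin) by 0.78 and -0.89, and Canx (calnexin) by 1.72 and -0.18. The isomerase Pdia3 differed by 0.52 and -1.62, and the cochaperones Dnajb9 by 1.58 and -0.55 and Dnajb11 by 1.23 and -0.97. These 6 genes were called in opposite directions on the 2 scales. Another calnexin probe set was lower in pancreas on both scales, by -2.55 and -3.04. Pdia5, another isomerase, was lower on both. It had 3.64, 3.81 and 4.54 in pancreas (lowest, median and highest), against 6.02, 9.63 and 10.13 in liver, 4.45, 4.76 and 5.37 in muscle and 6.61, 7.08 and 7.54 in adipose tissue. The lowest liver value is that of the array named above, without which liver began at 9.21. The difference was -0.84 ± 0.14 on the common scale (adjusted p = 5.07e-07) and -3.24 ± 0.15 as deposited. On the common scale it was carried by liver, since Pdia5 was 1.14 above muscle there.

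In the PERK arm Asns and Eif2ak3 stood out. Asns, the asparagine synthetase gene and a target of ATF4, had 12.21, 12.76 and 13.33 in pancreas. It had 2.51, 4.44 and 8.66 in liver, 2.40, 2.58 and 3.50 in muscle and 8.95, 9.43 and 10.12 in adipose tissue, so adipose tissue ranked next and no tissue overlapped with the pancreas. The highest liver value without the array named above was 6.53. The difference was 7.91 ± 0.23 on the common scale (adjusted p = 2.04e-38) and 7.10 ± 0.25 as deposited. Eif2ak3, which encodes the kinase PERK, had 8.27, 9.08 and 9.95 in pancreas, against 5.54, 5.81 and 6.33 in liver, 2.71, 3.13 and 3.52 in muscle and 6.68, 7.32 and 7.6 in adipose tissue. Again no array of another tissue reached the pancreas. The difference was 5.66 ± 0.07 (adjusted p = 3.8e-59) and 3.65 ± 0.08 as deposited.

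The other genes of this arm were mixed. Chac1, a glutathione-degrading enzyme downstream of ATF4, differed by 3.44 on the common scale and 1.25 as deposited, but as deposited it was higher in muscle than in pancreas (pancreas minus muscle -0.99). Atf4, the transcription factor of the arm, differed by 2.54 and 0.54, and Ppp1r15b, a subunit of the phosphatase that reverses PERK signalling, by 2.40 and 0.21. As deposited, Ppp1r15b was lower in pancreas than in liver and adipose tissue, by -0.55 and -0.24, and 1.44 above muscle. Ddit3, which encodes CHOP, differed by 0.96 on the common scale and -1.24 as deposited, and Trib3, a pseudokinase downstream of CHOP, by 0.94 and -1.14. Ppp1r15a, the inducible partner of that phosphatase and better known as GADD34, was lower on both scales. It had 2.61, 2.63 and 2.63 in pancreas, against 3.30, 3.31 and 3.48 in liver, 6.99, 7.29 and 7.61 in muscle and 6.16, 6.42 and 7.24 in adipose tissue. Pancreas and liver were thus both near the lowest value, with muscle and adipose tissue clear of them. The difference was -1.47 ± 0.06 on the common scale (adjusted p = 2.44e-31) and -3.09 ± 0.06 as deposited. The true size may be larger or smaller, since pancreas and liver were both near the lowest value. No size is given against liver alone, for the same reason.

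The sensors and factors of the other arms were higher or undecided. Atf6 differed by 2.97 on the common scale and 0.78 as deposited, and Xbp1 by 2.53 and 1.61, both higher than in each tissue on both scales. Xbp1 had a median of 12.92 in pancreas, against 12.40 in liver, 9.40 in muscle and 12.11 in adipose tissue. Ern1, the IRE1 gene, differed by 2.14 on the common scale and by -0.08 as deposited, the last with an adjusted p of 0.72.

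Of the degradation genes, Derl3 and Sel1l led. Derl3, a derlin of the retrotranslocation complex, had 8.40, 8.90 and 9.44 in pancreas. Its highest values were 2.84 in liver, 2.29 in muscle and 2.49 in adipose tissue, so it was at or near the lowest value outside the pancreas. The difference was 8.22 ± 0.05 on the common scale (adjusted p = 5.34e-75) and 6.63 ± 0.05 as deposited, each a lower bound on the size. Sel1l, the adaptor of the HRD1 ligase, had 11.81, 12.38 and 12.8 in pancreas, against 7.40, 9.34 and 9.61 in liver, 8.29, 8.54 and 8.75 in muscle and 8.69, 9.05 and 9.18 in adipose tissue. All pancreas arrays were above all others. The difference was 4.71 ± 0.08 (adjusted p = 3.33e-50) and 3.47 ± 0.09 as deposited, and all 5 probe sets of Sel1l were higher on both scales.

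The other derlins did not follow Derl3. Derl1 differed by -0.10 on the common scale (adjusted p = 0.354) and -2.19 as deposited, and its probe sets split in direction on the common scale. Derl2 differed by 0.17 (adjusted p = 0.0973) and -2.0 as deposited. Its difference without the liver array named above was 0.13 on the common scale, with an adjusted p of 0.0295, and -2.05 as deposited. Edem1, which picks glycoproteins for disposal, differed by 3.42 and 1.37, and Herpud1, which organizes the degradation complex, by 2.56 and 0.53. Against liver alone Herpud1 differed by 1.32 on the common scale and -0.35 as deposited (adjusted p = 0.0524). These were 1.15 and -0.53 (adjusted p = 1.3e-05) without the liver array named above, so that the deposited difference was called. Another Herpud1 probe set went the other way against liver, with deposited means of 11.1 in pancreas and 9.49 in liver. It differed from the mean of the other tissues by 4.03 on the common scale and 2.21 as deposited. Syvn1, the HRD1 ligase, differed by 1.71 on the common scale and -0.45 as deposited.

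Set side by side, folding genes and stress response arms had like shares and medians. On the common scale 16 of 17 folding genes, 10 of 11 genes of the arms and 5 of 7 degradation genes were higher in pancreas than the mean of the other tissues, with median differences of 2.51, 2.53 and 2.56. As deposited, 10 of 17, 7 of 11 and 4 of 7 were higher, with medians of 0.36, 0.54 and 0.53. No test was made of these counts. Within each role the spread was wide, from -0.84 to 11.79 among folding genes, -1.47 to 7.91 in the arms and -0.10 to 8.22 in degradation on the common scale. Probe sets of a gene that reached a mean of 4 in some tissue were called in opposite directions for 2 of the 18 genes with several of them on the common scale (Canx and Derl1) and for 5 as deposited (Atf4, Hspa5, Hyou1, Syvn1 and Xbp1).

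The other tissues were counted in the same way. Muscle was lower than each other tissue for 22 genes on the common scale, where 7.97% of all probe sets were, and for 20 as deposited (4.93%). Liver was higher than each other tissue for 6 genes on the common scale (Hsp90b1, Pdia3, Pdia4, Pdia5, Trib3 and Derl2), where 13.9% of all probe sets were, and for 8 as deposited (9.05%), among them Hspa5, Canx and Ern1. These liver counts were 8 and 11 without the liver array named above. Ppp1r15a was highest in muscle and Derl1 in adipose tissue on both scales.

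Genes of the same pathways outside the list were set beside the shares of all probe sets higher than each tissue, 21.8% on the common scale and 30.5% as deposited, and lower than each, 13.5% and 26.7%. Those shares include the many probe sets near the lowest value in pancreas. Among the 10280 with a pancreas mean of 4 or more, 4398 were higher than in each tissue on the common scale and 1376 as deposited. In translocation and glycosylation 20 of 24 genes were higher in pancreas than in each tissue on the common scale and 5 as deposited, with 0 and 3 lower (median differences 2.42 and 0.41), led by Serp1 and Sec11c, which act at the translocon. In oxidative folding and quality control the counts were 19 of 24 and 8 higher, with 1 and 4 lower (medians 2.11 and -0.0085), led by Nucb2 (common scale difference 8.41, 7.29 as deposited) and the prolyl isomerase Fkbp11 (7.82 and 6.07), while Fkbp14 was lower, by -2.79 and -4.07. In degradation beyond the list they were 9 of 14 and 3 higher, with 1 and 6 lower (medians 1.10 and -0.77), led by Edem2 (6.40 and 4.36) and Os9 (3.69 and 1.52), with the ATPase Vcp lower, by -1.46 and -3.60. In the wider stress response they were 21 of 30 and 7 higher, with 1 and 7 lower (medians 1.74 and -0.12). Bhlha15, the acinar factor Mist1 (8.96 and 7.50), and the mitochondrial folate enzyme Mthfd2 (7.68 and 5.63) led them, and Cebpb was lower, by -2.60 and -4.90.

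High and low triglyceride mice were then compared within each tissue, on the deposited values. No gene of the 35 passed the threshold in any tissue, with limma and adjustment over all probe sets. None of the 45037 probe sets passed either (0% in pancreas, 0% in liver, 0% in muscle and 0% in adipose tissue). With 1 fit over all 64 arrays, in which the tissues share a spread, 41, 106, 44 and 679 probe sets passed in pancreas, liver, muscle and adipose tissue, and still none of the 35 genes did. At an unadjusted p under 0.05 there were 2 of the 35 genes in pancreas, where 2.25% of all probe sets were, 0 in liver (3.82%), 4 in muscle (4.13%) and 3 in adipose tissue (4.61%). In fits kept to probe sets with a mean of 4 or more, these were 2 of 32 genes in pancreas (6.38% of such probe sets). There were 0 of 32 in liver (8.58%), 2 of 28 in muscle (9.48%) and 3 of 32 in adipose tissue (8.83%). Differences of the 35 genes ran from -0.30 to 0.58 log2 units in pancreas, -1.23 to 0.75 in liver, -0.27 to 0.31 in muscle and -0.68 to 0.25 in adipose tissue. Those in liver without the array named above ran from -0.73 (Asns) to 0.39 (Herpud1), and 3 of the 35 genes (Herpud1, Atf4 and Canx) had an unadjusted p under 0.05, where 5.44% of all probe sets did.

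**Figure D3:**
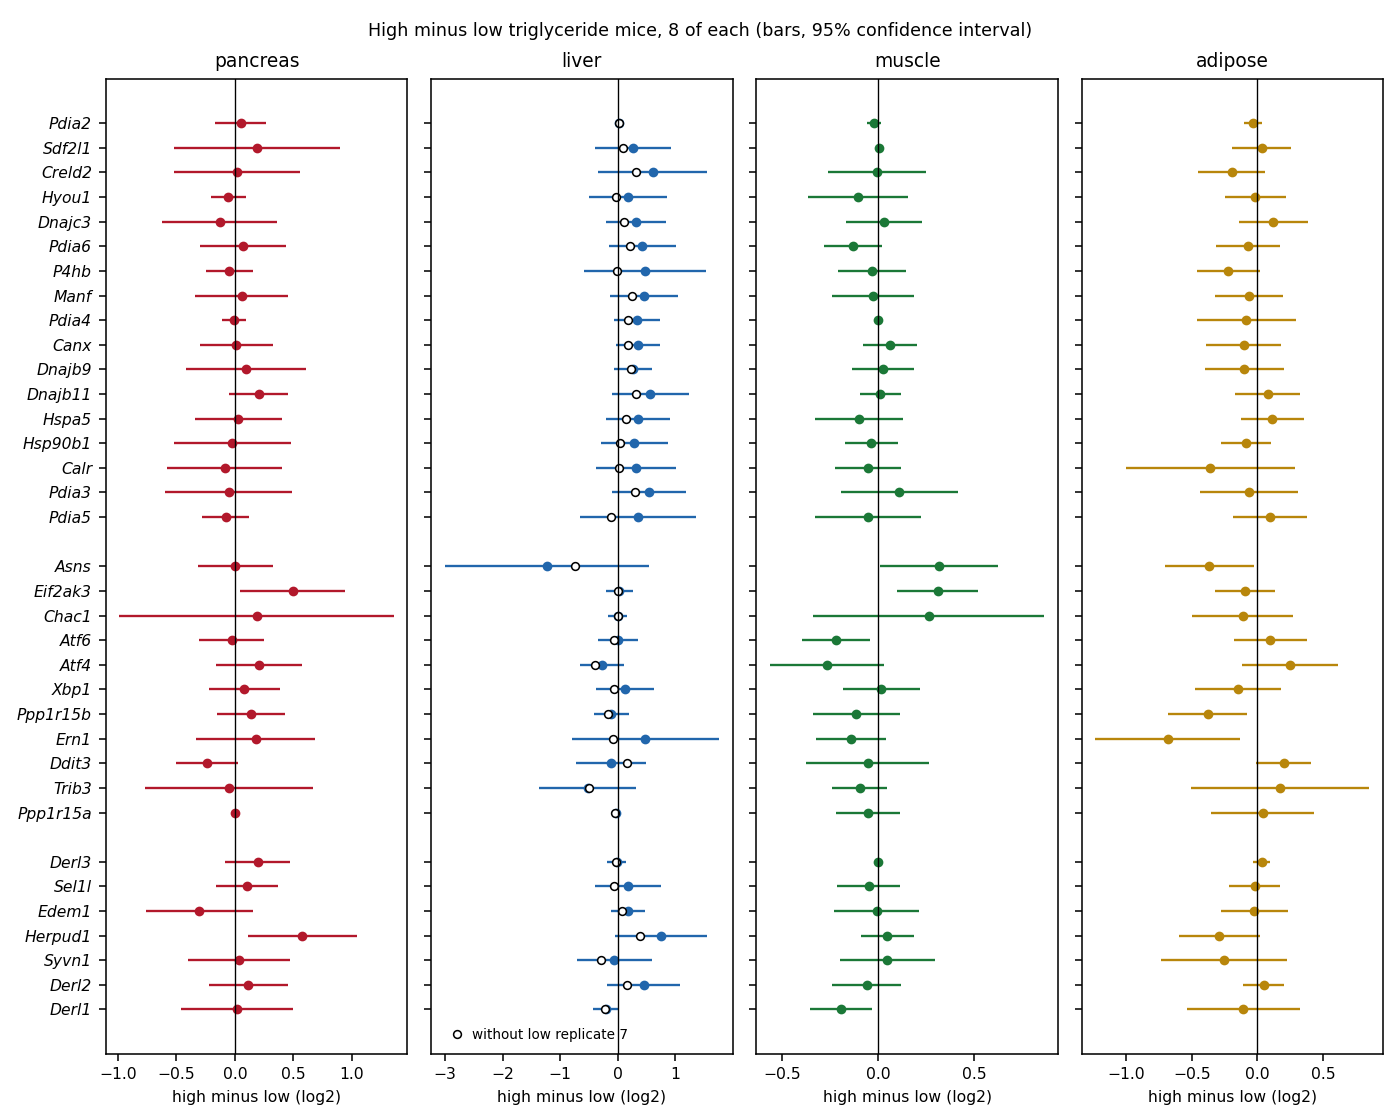
High minus low triglyceride difference (x axes, log2, each tissue with its own range) of 35 genes with 95% confidence intervals, 8 mice in each group, and for liver also the difference without low replicate 7 (open circles). Most intervals include 0, and the median of the liver differences is 0.26 with that array and 0.02 without it.

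In pancreas Herpud1 came first. Its values were 10.01, 10.59 and 11.56 in high triglyceride mice (lowest, median and highest of 8), against 9.66, 10.14 and 10.38 in low triglyceride mice. The groups overlapped, with the highest low triglyceride value below the high triglyceride median. The difference was 0.58 (95% interval 0.11 to 1.04, adjusted p = 0.599). Eif2ak3 had 8.91, 9.17 and 9.95 in high and 8.27, 8.79 and 9.37 in low triglyceride mice, a difference of 0.49 (0.04 to 0.94, adjusted p = 0.599). Ddit3 had 5.07, 5.76 and 6.02 in high and 5.73, 5.98 and 6.32 in low triglyceride mice, a difference of -0.24 (-0.50 to 0.03, adjusted p = 0.599). These 3 genes overlapped between the groups. The summed level of 4 islet markers ran from 14.71 to 16.29 in high (median 15.26) and from 14.22 to 15.81 in low triglyceride pancreas (median 14.71). That of 5 plasma cell and B cell markers ran from 4.85 to 5.96 in high and from 4.9 to 8.91 in low triglyceride pancreas. Only 1 of these 5 had a mean of 4 or more in pancreas. Igj reached 8.84 there, and Cd79a, the next highest, reached 3.12, so the high sums come from Igj. The part of the islet, plasma cell and B cell markers in these values was not tested.

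In liver, Derl1 had 10.17, 10.53 and 10.80 in high and 10.46, 10.65 and 11.06 in low triglyceride mice, a difference of -0.21 (-0.42 to 0.00, adjusted p = 0.754). Herpud1 had 10.62, 11.17 and 11.44 in high and 7.79, 10.75 and 10.86 in low triglyceride mice, a difference of 0.75 (-0.05 to 1.56, adjusted p = 0.754). Canx had 11.67, 11.84 and 12.16 in high and 10.33, 11.68 and 11.77 in low triglyceride mice, a difference of 0.35 (-0.03 to 0.73, adjusted p = 0.754). The lowest Herpud1 and Canx values were those of the array named above. Without it the difference of Herpud1 was 0.39 (0.12 to 0.66, adjusted p = 0.772), that of Canx was 0.19 (0.03 to 0.34, adjusted p = 0.772), that of Atf4 was -0.40 (-0.69 to -0.11, adjusted p = 0.772) and the median over the 35 genes moved to 0.02, against 0.26 with it.

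In muscle, Eif2ak3 had 3.05, 3.27 and 3.52 in high and 2.71, 2.97 and 3.29 in low triglyceride mice, a difference of 0.31 (0.10 to 0.52, adjusted p = 0.811) at values close to the lowest of the array. Atf6 had 6.78, 7.06 and 7.41 in high and 7.19, 7.27 and 7.42 in low triglyceride mice, a difference of -0.22 (-0.39 to -0.04, adjusted p = 0.811). Derl1 had 9.64, 10.02 and 10.17 in high and 10.02, 10.17 and 10.39 in low triglyceride mice, a difference of -0.19 (-0.35 to -0.03, adjusted p = 0.811). Each of them overlapped between the groups. The summed level of 4 hepatocyte markers ran from 4.38 to 11.31 in high and from 4.5 to 7.93 in low triglyceride muscle (log2). That of 5 acinar markers ran from 5.06 to 7.77 in high and from 4.79 to 5.54 in low triglyceride muscle, and that of 3 adipocyte markers had medians of 10.12 in high and 8.63 in low triglyceride muscle. Only 1 of the 5 acinar markers had a mean of 4 or more in muscle. The part of these 3 marker lists in these values was not tested.

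In adipose tissue, Ppp1r15b had 9.02, 9.31 and 9.58 in high and 9.39, 9.47 and 10.22 in low triglyceride mice, a difference of -0.38 (-0.68 to -0.08, adjusted p = 0.854). Ern1 had 7.22, 7.77 and 8.31 in high and 7.46, 8.47 and 9.09 in low triglyceride mice, a difference of -0.68 (-1.23 to -0.13, adjusted p = 0.854). Asns had 8.95, 9.29 and 10.13 in high and 9.20, 9.68 and 10.05 in low triglyceride mice, a difference of -0.37 (-0.71 to -0.03, adjusted p = 0.854). All 3 overlapped between the groups. The summed level of 5 skeletal muscle markers ran from 8.18 to 14.91 in high (median 13.62) and from 9.63 to 16.01 in low triglyceride mice (median 15.37), and that of 4 hepatocyte markers ran from 5.52 to 12.07 in high and from 5.40 to 7.17 in low triglyceride mice. Their part in the differences was not tested.

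Whether the triglyceride difference itself changed between tissues was tested over all 64 arrays. None of the 35 genes passed, where 0.0666% of all probe sets passed. At an unadjusted p under 0.05 there were 4 of the 35 genes, where 7.18% of all probe sets were. Herpud1 had the lowest p, with an adjusted p of 0.468, and of 0.153 without the liver array named above. This test used the common scale. As deposited, the Herpud1 difference was 0.58 in pancreas and 0.75 in liver, against 0.05 in muscle and -0.29 in adipose tissue. Without that array it was 0.39 in liver.

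The spread of the genes between mice ranked higher among all probe sets in pancreas and liver than in muscle and adipose tissue. Among genes with a mean of 4 or more, the median gene had a larger SD over the 16 mice than 73.3% of all such probe sets in pancreas, 75.7% in liver, 41.1% in muscle and 30.1% in adipose tissue. Without the liver array named above the value for liver was 59.9%. In pancreas 8 of 32 genes were above 90% of all probe sets: Chac1, Sdf2l1, Herpud1, Pdia3, Creld2, Eif2ak3, Dnajb9 and Ern1.

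Chac1 had the largest spread in pancreas, from 6.49 to 9.87 with a median of 8.23 (SD 1.09). It was also first in muscle, from 8.01 to 9.83 (SD 0.57), where Atf4 (SD 0.31) and Ddit3 (SD 0.29) came next. Sdf2l1 (SD 0.66) and Herpud1 (SD 0.52) followed Chac1 in pancreas. In liver Asns came first, with an SD of 1.76 over all 16 mice and 1.43 over 15. Among the 15 it ran from 2.51 to 6.53, with Trib3 (SD 0.85) and Creld2 (SD 0.70) next, whereas Ern1 (SD 1.21) and P4hb (SD 1.01) followed Asns over all 16. In adipose tissue Trib3 (SD 0.63), Calr (SD 0.62) and Ern1 (SD 0.62) were first.

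Hspa5 and Sdf2l1 varied together between mice in liver. Of 12 relations between pairs over 16 mice, 2 passed a two-sided permutation test of Pearson's r after Benjamini-Hochberg adjustment. Hspa5 and Sdf2l1 in liver had r = 0.836 (permutation p = 0.00087, adjusted p = 0.0104) and Spearman's rho = 0.739 (permutation p = 0.00142, adjusted p = 0.017). Without the liver array named above r was 0.753, without the 2 mice farthest from the Hspa5 median it was 0.833, and within high and low triglyceride mice it was 0.814 and 0.887. In pancreas the same pair had r = 0.569 (permutation p = 0.019, adjusted p = 0.076) and rho = 0.622 (permutation p = 0.0119, adjusted p = 0.0714), and r was 0.670 without the 2 farthest mice, 0.736 within high and 0.396 within low triglyceride mice. In adipose tissue r was -0.03, with Sdf2l1 near the lowest value (mean 3.07). In muscle Sdf2l1 was at the lowest value on most arrays, so that r, at 0.102, has no meaning there.

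**Figure D4:**
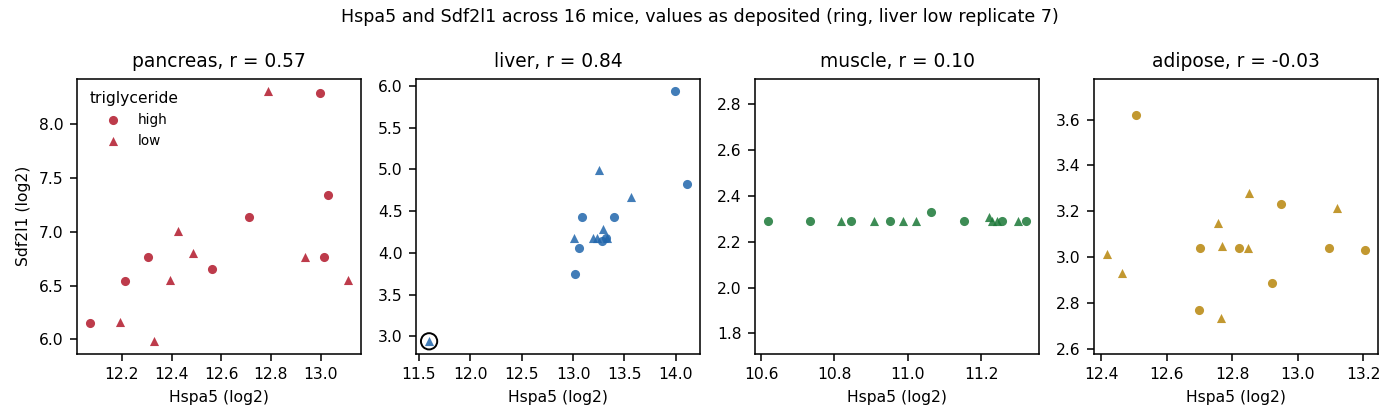
Sdf2l1 (y axis) against Hspa5 (x axis), deposited log2 values of 16 mice in each tissue, with high triglyceride mice as circles, low triglyceride mice as triangles and the array labelled liver low replicate 7 ringed. The liver points rise together also without the ringed array (r = 0.753), the pancreas points scatter more widely, and the muscle points lie at the lowest Sdf2l1 value.

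The other relation rested on 1 array. Hspa5 and Herpud1 in liver had r = 0.840 (permutation p = 0.00501, adjusted p = 0.0301) but rho = 0.409 (permutation p = 0.116, adjusted p = 0.348). Without the array named above r was 0.395, and without the 2 farthest mice it was 0.159, so the relation did not hold. In pancreas, muscle and adipose tissue r for this pair was 0.279, -0.363 and -0.06, with adjusted p-values of 0.6 or more in pancreas and adipose tissue and of 0.401 in muscle by permutation test. Ddit3 and Trib3, both of the PERK arm, had r = 0.372 in pancreas, 0.07 in liver, -0.175 in muscle and -0.106 in adipose tissue, with adjusted permutation p-values from 0.401 to 0.898. Trib3 had a mean of 2.67 in muscle and 3.71 in pancreas. These are near the lowest value, above all in muscle, so r holds little signal there.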

How the data were processed

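RNA of 4 tissues of 16 mice was hybridised to Affymetrix mouse arrays, 64 in all. The authors deposited log2 values, made with GCRMA per the submitters' processing notes (version not given in the sources used here). The lowest value and the 75th percentile of the deposited log2 values differ more between tissues than within one, as if each tissue had been normalized apart. The table held 0 columns of other series, and 64 control probe sets were left out.

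A gene was measured by the probe set annotated to it alone, the one with the highest mean where it had several. Of the 36 genes, 11 had 1 such probe set and 24 had several, 79 in all. Members and gene lists were chosen with earlier results of these data known. Named genes were the 8 with the largest positive pancreas difference and those lower, the 3 with the lowest p and the 3 with the largest SD in each tissue, and the called related genes farthest in each direction.

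Tissues were compared with limma 3.58.1 (R 4.3.3) over 64 arrays after quantile normalization to 1 distribution, and as deposited. Triglyceride groups were compared with limma within each tissue on deposited values, and the difference between tissues by an F test on the common scale. P-values were adjusted by Benjamini-Hochberg over 45037 probe sets, with a threshold of 0.05. Relations between genes used 100000 permutations. The fits were tested on simulated data. Alternatives were other scalings, a minimum mean of 4, all probe sets of a gene, array weights, 1 fit over all 64 arrays for triglyceride, blocks for mouse or replicate number, and leaving out arrays in turn. Leaving out the array labelled liver low triglyceride replicate 7 by itself was chosen after seeing the data. The replicates are separate mice, and 0 pairs of arrays were identical. The number of arrays limits the precision.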

Additional observations from a re-analysis of the deposited data

Results flagged for a closer look

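Among the genes named for triglyceride or spread, 48 groups of 8 mice were checked for a sample far from the other 7, and 9 had one. A rate of 1 in 20 gives about 2.4. The genes were picked partly for their spread, which a far sample raises, so the count cannot be set against that rate. Of the 9, 5 are the array labelled liver low triglyceride replicate 7, which held adipose and muscle markers. Its values were 10.33 for Canx (the other 7 ran from 11.45 to 11.77), 5.62 for Creld2 (7.46 to 8.42), 4.82 for Ern1 (9.06 to 9.73), 7.79 for Herpud1 (10.46 to 10.86) and 8.71 for P4hb (12.40 to 12.82). P4hb was also low in liver of high triglyceride replicate 8, at 11.82, where the others ran from 12.52 to 12.91. In pancreas, Ddit3 was 5.07 in high triglyceride replicate 4 (others 5.64 to 6.02), and Sdf2l1 was 8.31 in low triglyceride replicate 3 (others 5.98 to 7.01). In adipose tissue, Asns was 10.12 in high triglyceride replicate 1, where the others ran from 8.95 to 9.40.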

How the results depend on the processing

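The scale across tissues moved the tissue counts most. As deposited, and with each array centred on its median, 13 and 11 genes were lower in pancreas than the mean of the other tissues (2 on the common scale). Higher than each tissue were 14 and 14, lower than each 5 and 4, at least 2-fold higher 8 and 8, and at least 2-fold lower 1 and 1. Differences that turned negative as deposited and after centring were those of Calr (-0.89, -0.64), Ddit3 (-1.24, -0.99), Derl2 (-2.0, -1.75), Dnajb11 (-0.97, -0.72), Dnajb9 (-0.55, -0.30), Hsp90b1 (-0.49, -0.24), Pdia3 (-1.62, -1.38), Syvn1 (-0.45, -0.21) and Trib3 (-1.14, -0.89). Canx (-0.18) and Ern1 (-0.077) turned as deposited alone. With the mean of all its probe sets, Derl1 gave 0.11 between tissues and 0.0839 for triglyceride in liver. The cause was not tested.

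Leaving out 1 mouse or array at a time gave 31 to 32 genes higher than the mean of the other tissues and 19 to 21 at least 2-fold higher than each. With the mouse number as a replicate block the counts were 31, 2, 25, 0, 21 and 0, as without it. The replicate number as a replicate block gave 0 genes for triglyceride in each tissue. Same-numbered high and low triglyceride mice are different animals, and their deviations correlated between -0.295 and 0.361. No triglyceride count of the 35 genes left 0 under the alternatives run.

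For Hspa5 and Sdf2l1, r within low triglyceride mice was 0.396 in pancreas and 0.466 in adipose tissue. For Hspa5 and Herpud1 in liver, r was 0.454 within high and 0.946 within low triglyceride mice, 0.159 without the 2 farthest mice and 0.395 without liver low triglyceride replicate 7. In adipose tissue it was 0.235 within high triglyceride mice. For Ddit3 and Trib3, r was 0.776 within low triglyceride mice in pancreas. In liver it was -0.261 within high triglyceride mice, -0.179 without the 2 farthest and -0.105 without liver low triglyceride replicate 7. Within high triglyceride mice it was 0.611 in muscle and 0.343 in adipose tissue. Genes near the lowest value, such as Ppp1r15a in pancreas and Sdf2l1 and Trib3 in muscle, have little signal over background there.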
